A study of Mus musculus with 3 samples.

Results

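Fibroblasts that came through a flow-cytometry sort for mammary epithelial cells are described here in 3 droplet single-cell RNA-seq libraries. A fibroblast was a cell with at least 500 detected genes, under 10% mitochondrial transcripts, at least 3 of the 6 genes Col1a1, Col1a2, Col3a1, Dcn, Lum and Pdgfra detected, and fewer than 5 transcript molecules in each of 3 epithelial marker sets. Those sets were Krt5, Krt14 and Krt17 for basal cells, Csn3, Elf5, Kit and Aldh1a3 for luminal progenitor cells, and Prlr, Areg, Pgr, Esr1 and Cited1 for hormone-responsive cells. Of 26320 cells kept, 177 met the rule, 5 of 6343 in library 1, 80 of 8934 in library 2 and 92 of 11043 in library 3. The mice were FVB/NJ females of 10 weeks, and the labels name no treatment or allele. Number 4 glands of 4 mice were pooled and digested with collagenase, organoids were enriched by centrifugation and their cells were freed with trypsin and stained for CD49f, EpCAM, CD31, CD45, Ter119 and the dead-cell dye SytoxBlue before live epithelial cells were taken. All 3 libraries belong to this 1 group, and no contrast between them is given. The same account of the pool stands with each library, so p-values measure only the spread between libraries, which may be technical. Fibroblasts were compared with all epithelial cells (20013 cells with 5 or more molecules in at least 1 epithelial set) and with basal cells (7964 cells with 5 or more in the basal set only).

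Fibroblasts of the mammary stroma make and remodel the matrix around ducts and fat. They secrete fibrillar collagens, proteoglycans and elastic-fibre proteins, the enzymes that crosslink and cleave them, and ligands and antagonists that act on the epithelium. In many mouse tissues, fibroblasts near vessels and in fascia carry Pi16 and Dpp4, whereas those nearer to parenchyma or fat carry Col15a1 or lipid-handling genes. Basal cells line the outside of the duct, contract during milk ejection and also lay down matrix.

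The cells were chosen by the measured counts of the 18 genes of the rule, so the levels of those genes are a description and were not tested. Counts are unique molecular identifiers (UMIs), and a level in CPM is a gene's UMIs summed over a class in a library, scaled to a class total of 1000000. Col1a1, a chain of type I collagen, stood at 97.2, 12850 and 5157 CPM in fibroblasts of libraries 1, 2 and 3, against 1.58, 6.96 and 7.82 CPM in all epithelial cells. Dcn, the collagen-binding proteoglycan decorin, stood at 7000, 8394 and 9206 CPM in fibroblasts, against 27.5, 112 and 92.9 CPM in epithelial cells. Fibroblasts of library 1 were far below those of libraries 2 and 3 for Col1a1 and level with them for Dcn, and the classes did not overlap for either gene. Lum, the proteoglycan lumican, had 0, 1634 and 1548 CPM in fibroblasts, against 0, 1.68 and 2.88 CPM in epithelial cells. Pdgfra, a receptor for platelet-derived growth factor that marks many fibroblasts, had 194, 627 and 422 CPM in fibroblasts, against 10.9, 2.73 and 4.72 CPM in epithelial cells. No Lum UMI was found in library 1 in either class.

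**Figure D1:**
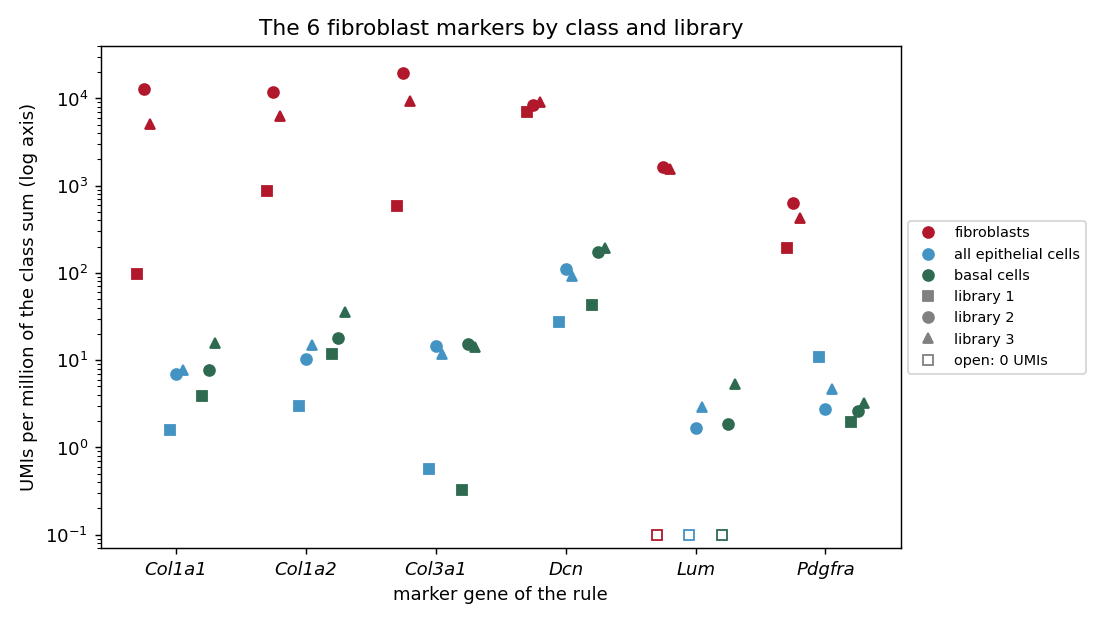
Levels of the 6 fibroblast markers (CPM, log axis) in fibroblasts, all epithelial cells and basal cells, with 1 point per library and open points at 0 UMIs. The fibroblast square of library 1 is at 0 UMIs for Lum and at 97.2 CPM for Col1a1, while Dcn lies between 7000 and 9206 CPM in all 3 libraries.

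Library 1 stood apart. All 5 fibroblasts of library 1 had exactly 3 markers, at a median of 25 UMIs over the 6 markers. Col1a1 UMIs were found in 1 of these 5 cells, Lum UMIs in 0 and Itga6 UMIs in all 5, whereas their Dcn level was near that of the other libraries. By these markers the label of fibroblast is uncertain for the 5 cells. They form 1 of the 3 fibroblast sums in each comparison. Among cells low in epithelial sets, 127 had 2 markers, just outside the rule, at a median of 2 UMIs, and 22 had 3, just inside it, at a median of 6 UMIs. Cells with 4, 5 and 6 markers numbered 17, 62 and 76, at medians of 29, 57 and 96 UMIs. After thinning each cell to 1000 UMIs, Col1a1 was detected in 89.3% of 169 fibroblasts and in 0.471% of 19743 epithelial cells, and Dcn in 95.3% and 6.45%. Thinning left out 8 fibroblasts and 270 epithelial cells; without it the median depths were 1893 UMIs in fibroblasts and 2763 UMIs in epithelial cells. Within library 1, the 6 markers summed to 184 CPM in hormone-responsive cells, all of it Dcn, and to 21.0 CPM in luminal progenitor cells, and whether free RNA or the cells themselves gave these UMIs was not tested.

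Shares of the kept cells were 0.0788% (exact Clopper-Pearson 95% interval 0.0256 to 0.184) in library 1, 0.895% (0.711 to 1.11) in library 2 and 0.833% (0.672 to 1.02) in library 3. Library 1 lay below the other two, whose intervals overlap; the sort can set these shares, and a class share does not tell fewer fibroblasts from more cells of other types. The libraries held 18584156, 27220670 and 30984706 UMIs in all. The fibroblast sums held 10286, 181796 and 177610 UMIs, so that 1 UMI was worth 97.2, 5.50 and 5.63 CPM and a count of 0 allows up to 3 UMIs, or 292, 16.5 and 16.9 CPM. Intervals and limits cover counting error only. In library 1, 1 UMI put a gene above any epithelial or basal level under 97.2 CPM. Agreement of all 3 libraries at such levels therefore rests mainly on libraries 2 and 3. Between libraries 77 to 146 cell barcodes were shared, of which 0 belonged to a fibroblast.

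Markers of other cell types were counted over the 177 cells. Of 9 pericyte markers (contractile cells of small vessels), 237 UMIs were found, and 12 cells had 3 or more of them, 1, 4 and 7 in libraries 1, 2 and 3. Of 10 endothelial markers 85 UMIs were found, 2 cells had 3 or more, and Tie1 was at 0. Of 9 immune markers 11 UMIs were found, 0 cells had 3 or more, and Tyrobp, Fcer1g, Cd3e and Cd79a were at 0. All 6 adipocyte markers, among them Adipoq and Plin1, were at 0 UMIs. Schwann-cell markers had 21 UMIs and lymphatic markers 24, skin keratinocyte markers had 109, erythroid markers 5, skeletal muscle markers 7 and mesothelial markers 1, and of these lists a cell with 3 or more was found for the Schwann list alone (1 cell). Summed pericyte markers were at 1944, 605 and 602 CPM in fibroblasts of libraries 1, 2 and 3. The 6 myoepithelial markers summed to 5930, 847 and 918 CPM in fibroblasts, against 10058, 11223 and 11465 CPM in basal cells. Of the 177 cells 14 had 3 or more myoepithelial markers, 2, 7 and 5 by library. A marker of a list of 6 general epithelial genes was found in 99 of the 177 cells, and 8 had 3 or more. In addition 43 epithelial cells, 1, 16 and 26 by library, had 3 or more fibroblast markers and stayed on the epithelial side.

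Against all epithelial cells, fibroblasts were higher in genes of matrix, collagen processing, complement and adventitial identity and lower in keratins, junctions, epithelial regulators and milk genes. Of 12259 genes tested with edgeR's quasi-likelihood test (library as a block; a call needed a Benjamini-Hochberg adjusted p under 0.05 together with a fitted log2 fold change of 1 or more in size), 804 were higher in fibroblasts (6.56%) and 568 lower (4.63%), or 11.2% in either direction. Against basal cells, 563 of 9577 genes were higher (5.88%) and 529 lower (5.52%), or 11.4% in either direction. An unadjusted p below 0.05 was reached by 2651 and 2068 genes. The median log2 fold change over all genes tested was -0.31 against epithelial cells and -0.17 against basal cells. The comparisons share the fibroblast sums, so their values are given side by side and their overlap is not read. With library 1 left out, 933 genes were higher and 615 lower against epithelial cells, and 920 and 734 against basal cells. With library 2 left out, 372 were higher and 36 lower against epithelial cells and 189 and 19 against basal cells; with library 3 left out, 285 and 12, and 172 and 18. In those fits the 5 cells of library 1 are 1 of 2 fibroblast sums. Leaving out cells with 3 or more endothelial, pericyte or immune markers kept 4, 75 and 85 fibroblasts and gave 732 higher and 509 lower genes against epithelial cells, and 499 and 471 against basal cells. A gene was tested where at least 3 of the 6 sums reached 1.25 CPM against epithelial cells or 6.15 CPM against basal cells. Of the genes called higher, 203 of 804 and 219 of 563 needed a fibroblast sum to pass, and for 49 and 83 of them no epithelial or basal sum reached that level. Such genes had to differ once tested, so their fold changes, and the list counts and medians that hold them, are a description. Genes named below as not tested had too few counts outside fibroblasts of libraries 2 and 3 to pass the filter, and their values are a description.

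Among genes outside the rule with a mean of at least 100 CPM in fibroblasts and 1 sign in all 3 libraries, Sod3 and Efemp1 led by fold change against epithelial cells, and Col5a3 and Clec3b against basal cells. Sod3, Efemp1, Lama2, Col5a3, Sgce, Ebf2 and Serpina1b passed the filter on low counts through fibroblast sums alone in each comparison that tested them, so no p is given for them. Sod3, the extracellular superoxide dismutase, stood at 194, 138 and 265 CPM in fibroblasts of libraries 1, 2 and 3, against 0, 0 and 0.422 CPM in all epithelial cells and 0, 0 and 1.04 CPM in basal cells. Its log2 fold change was 9.99 ± 0.52 against epithelial cells and 8.77 ± 0.52 against basal cells (± standard error derived from the F statistic). Sod3 was seen in 51 fibroblasts and was higher in every library without overlap. Efemp1, a fibulin of elastic fibres also called fibulin-3, stood at 194, 182 and 495 CPM in fibroblasts, against 0.0630, 0.0455 and 0.844 CPM in epithelial cells (9.72 ± 0.55; 8.79 ± 0.53 against basal cells). Lama2, the alpha-2 laminin chain of mesenchymal basement membranes, stood at 194, 710 and 394 CPM in fibroblasts, against 0.0630, 1.18 and 0.537 CPM in epithelial cells (9.39 ± 0.59; 9.19 ± 0.61 against basal cells). Both genes were higher in fibroblasts of every library, with library 3 highest for Efemp1 and library 2 highest for Lama2. The library 1 values of Sod3, Efemp1 and Lama2 rest on very few UMIs, at 97.2 CPM each. Col5a3, a minor fibrillar chain of type V collagen, stood at 97.2, 638 and 270 CPM in fibroblasts, against 0.189, 0.545 and 1.23 CPM in epithelial cells (8.81 ± 0.56; 9.22 ± 0.59 against basal cells). Igfbp6, a binding protein for insulin-like growth factor II, stood at 6222, 1590 and 2235 CPM in fibroblasts, against 1.51, 3.14 and 8.44 CPM in epithelial cells (9.13 ± 0.77; 8.08 ± 0.70 against basal cells). Library 1 was highest for Igfbp6 and lowest for Col5a3.

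The other largest genes were Sgce, the dystrophin-associated epsilon-sarcoglycan (9.45 ± 0.65 against epithelial cells), Clec3b, the plasminogen-binding tetranectin (9.05 ± 0.82), Mfap5, a microfibril glycoprotein (9.05 ± 0.69), and Ccdc80, a matrix-associated protein (8.81 ± 0.72). Against basal cells, Tnxb, which encodes tenascin-X (8.66 ± 0.63), the serine protease Htra3 (8.59 ± 0.69), the growth factor Igf1 (8.58 ± 0.48) and the transcription factor Ebf2 (8.42 ± 0.63) were also among the 10 largest. In that comparison Tnxb, Htra3 and Igf1 also passed the filter on low counts through fibroblast sums alone. The same holds there for Ogn, Figf, Ebf1, Nrp1 and Des, named below. Fold changes of these genes against basal cells are a description. Ebf2 could not be tested without library 3, and Sod3 and Sgce in both comparisons and Igf1 against basal cells could not be tested once cells with 3 or more endothelial, pericyte or immune markers were left out. Serpina1b was also among the 10 largest against epithelial cells (9.69 ± 0.77), but it was seen in 6 fibroblasts, has paralogs of very similar sequence, and is uncertain.

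**Figure D2:**
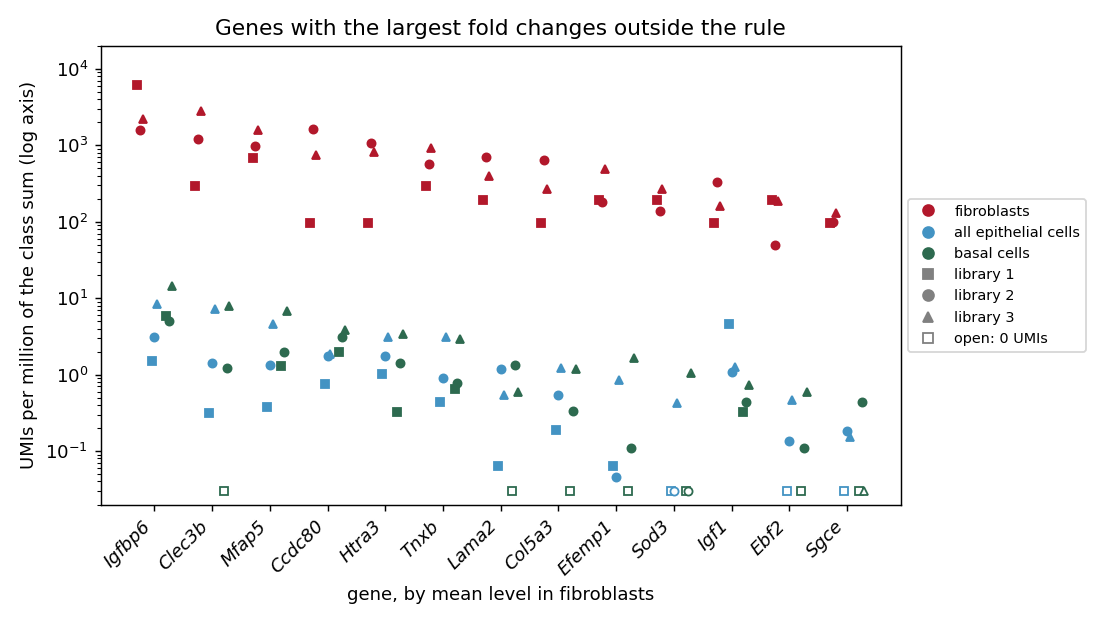
Levels (CPM, log axis) of 13 genes with the largest fold changes in either comparison, with 1 point per library and open points at 0 UMIs. Every fibroblast point, from 49.5 CPM for Ebf2 upward, lies above every epithelial and basal point of its gene. The genes were picked for large fold changes with 1 sign in all 3 libraries, so the separation largely follows from the choice.

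The lowest genes against all epithelial cells were Aqp5, Spp1, Smim22, Ltf and Slpi. The water channel Aqp5 stood at 0, 0 and 11.3 CPM in fibroblasts, against 178, 142 and 141 CPM in epithelial cells (-4.79 ± 0.79, edgeR adjusted p = 4.80e-08). Spp1, the phosphoprotein osteopontin found in milk, stood at 0, 33.0 and 22.5 CPM in fibroblasts, against 1354, 289 and 633 CPM in epithelial cells (-4.34 ± 0.67). The iron-binding milk protein Ltf stood at 0, 16.5 and 28.2 CPM in fibroblasts, against 994, 246 and 400 CPM in epithelial cells (-4.21 ± 0.65). The groups did not overlap for these genes. Smim22, which encodes a small membrane protein, was lower as well (-4.33 ± 0.72). Against basal cells, the protease inhibitor Slpi stood at 194, 66.0 and 28.2 CPM in fibroblasts and 5770, 1426 and 2146 CPM in basal cells (-5.44 ± 0.75, edgeR adjusted p = 1.98e-11). The desmosome protein Pkp1 (-5.23 ± 0.90), the keratin Krt15 (-5.03 ± 0.70), the integrin-binding kindlin Fermt1 (-4.92 ± 0.92) and the homeobox factor Irx4 (-4.74 ± 0.76) were the next lowest. Without library 2 the calls of Aqp5 (-3.93), Pkp1 (-4.44) and Irx4 (-4.72) were lost, and without library 3 those of Fermt1 (-4.07) and Smim22 (-3.37).

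Collagens were mostly higher in fibroblasts than in all epithelial cells. Of 15 genes tested outside the rule, 9 were higher and 1 lower than in all epithelial cells, with a median log2 fold change of 2.50. Against basal cells 6 of 12 were higher and 2 lower, with a median of 2.05. Col6a1, a chain of the microfibrillar type VI collagen, stood at 778, 1700 and 1154 CPM in fibroblasts, against 12.7, 11.8 and 14.2 CPM in all epithelial cells and 58.0, 23.9 and 42.6 CPM in basal cells (6.22 ± 0.63 and 4.70 ± 0.60, with edgeR adjusted p of 5.15e-21 and 3.57e-13). Col6a2 was higher as well (7.08 ± 0.61 and 5.59 ± 0.59). Col5a2, a type V chain that sets collagen fibril width, stood at 0, 1293 and 608 CPM in fibroblasts, against 15.0, 23.5 and 18.6 CPM in epithelial cells (4.83 ± 0.57). Fibroblasts of library 1 held no Col5a2 UMI and overlapped with the epithelial values, and without library 3 the call was lost (4.15). Col15a1, a collagen near basement membranes, stood at 0, 875 and 366 CPM in fibroblasts, against 0.630, 1.77 and 1.34 CPM in epithelial cells (8.24 ± 0.58), and was not tested against basal cells. Col8a1, a short-chain collagen, stood at 0, 0 and 5.63 CPM in fibroblasts, against 25.6, 88.6 and 89.7 CPM in epithelial cells (-5.00 ± 0.93); the call was lost without library 2 (-4.02) and without library 3, where both remaining fibroblast sums were at 0. Col11a1 was lower than in basal cells (-1.68 ± 0.54), and that call was lost in each fit without library 2 (-1.66) or 3 (-1.79). Without library 3, 4 of 15 collagens were called higher against epithelial cells, and without library 2 or 3, 4 of 12 against basal cells.

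Upstream sequences are shown for 2 collagens of the rule and for Col5a3, Lama2 and Efemp1, which had some of the largest fold changes in both comparisons. Col1a1 was detected in 169, Col1a2 in 172 and Col3a1 in 168 of 177 cells, and the rule itself favours their joint detection. RefSeq's table for GRCm38.p6, the same assembly as the mm10 of the files, holds Col1a2, Col3a1 and Pdgfra of the 6 rule markers. Each line gives the 120 bases before the annotated start, 5′ to 3′ on the gene's strand, with capitals for the letters of a CCAAT box, of the GC box GGGCGG, or of the TATA-type motif TATAAA, on either strand.
Col1a2: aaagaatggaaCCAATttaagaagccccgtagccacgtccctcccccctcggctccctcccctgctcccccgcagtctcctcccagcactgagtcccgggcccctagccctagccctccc
Col3a1: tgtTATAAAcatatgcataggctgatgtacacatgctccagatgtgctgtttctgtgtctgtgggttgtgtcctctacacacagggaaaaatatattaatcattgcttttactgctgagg
Col5a3: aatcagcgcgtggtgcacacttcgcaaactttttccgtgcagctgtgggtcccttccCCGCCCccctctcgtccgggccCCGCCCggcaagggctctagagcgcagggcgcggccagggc
Lama2: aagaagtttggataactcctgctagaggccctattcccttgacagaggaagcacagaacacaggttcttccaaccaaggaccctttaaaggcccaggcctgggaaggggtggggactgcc
Efemp1: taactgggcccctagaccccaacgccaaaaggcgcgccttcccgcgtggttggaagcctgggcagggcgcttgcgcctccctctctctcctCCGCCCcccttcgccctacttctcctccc
These windows lie at chr6:4505498-4505617 (plus strand), chr1:45311418-45311537 (plus), chr9:20815068-20815187 (minus), chr10:27616943-27617062 (minus) and chr11:28853085-28853204 (plus), in the order printed. A CCAAT box stood in Col1a2 and a TATAAA in Col3a1, whose first base lay 117 before the start. Col5a3 held 2 and Efemp1 held 1 copy of GGGCGG, read as CCGCCC, and Lama2 held 0 copies of all 3 motifs. The window of Pdgfra, which is not printed, also held 0 copies. Over 32851 windows of the same length in the table, CCAAT was found in 21.3%, GGGCGG in 26.5% and TATAAA in 6.34%, each on either strand. The motifs do not overlap each other in these windows, and the matches are a description of letters only.

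Enzymes that mature collagen were higher in fibroblasts than in all epithelial cells for 14 of 19 genes tested and lower for 0, and than in basal cells for 9 of 18. Pcolce, which enhances removal of the collagen propeptide, stood at 583, 380 and 287 CPM in fibroblasts, against 2.96, 8.32 and 6.44 CPM in epithelial cells and 5.54, 12.7 and 10.2 CPM in basal cells (5.62 ± 0.43 and 4.96 ± 0.41). Loxl2, a lysyl oxidase that crosslinks collagen and elastin, stood at 292, 149 and 253 CPM in fibroblasts, against 3.91, 3.68 and 3.68 CPM in epithelial cells (5.65 ± 0.39). Fibroblasts of all libraries lay above epithelial cells for both genes. Lox and Loxl1, further lysyl oxidases, were not tested; they stood at 0, 528 and 208 CPM and at 0, 836 and 631 CPM in fibroblasts, against at most 0.409 and 1.23 CPM in epithelial cells. The collagen chaperone Serpinh1 stood at 0, 897 and 608 CPM in fibroblasts, against 153, 288 and 161 CPM in epithelial cells, and was not called (1.24). Against basal cells, 14 of 23 were higher without library 1, and 2 of 18 without library 2 or 3. Against epithelial cells 8 of 19 were higher without library 2 and 5 of 19 without library 3.

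Small proteoglycans and hyaluronan genes were higher than in all epithelial cells for 6 of 10 genes tested and lower for 0 (median 2.59). Against basal cells 4 of 9 were higher and 2 lower (median 0.21). Of the higher genes, 3 of the 6 and 3 of the 4 needed a fibroblast sum to pass the filter on low counts. Ogn, the proteoglycan osteoglycin, stood at 194, 187 and 664 CPM in fibroblasts, against 1.32, 0.364 and 1.38 CPM in epithelial cells and 3.26, 0.551 and 1.63 CPM in basal cells (8.41 ± 0.54 and 7.80 ± 0.52). Has1, which makes hyaluronan, stood at 0, 143 and 952 CPM in fibroblasts, against 2.39, 1.59 and 3.34 CPM in epithelial cells (6.98 ± 0.56), with library 3 highest and library 1 at 0 UMIs. Dpt, the collagen-binding dermatopontin, stood at 0, 759 and 1616 CPM in fibroblasts, against 0, 0.727 and 5.45 CPM in epithelial cells (9.0 ± 0.75), and was not tested against basal cells or, without library 3, against epithelial cells. Fmod, the collagen-binding fibromodulin, was lower than in basal cells (-2.04 ± 0.51) at 389, 44.0 and 39.4 CPM in fibroblasts, against 84.7, 270 and 237 CPM in basal cells; library 1 went the other way, and the call was lost without library 2 (-1.11) or 3 (-1.19). Without library 3, 3 of 8 genes of the list were higher than in epithelial cells and 2 of 8 than in basal cells.

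Elastic-fibre and microfibril genes were higher in fibroblasts for 12 of 15 tested against epithelial cells (median 2.81) and for 9 of 14 against basal cells (median 2.1), with 1 lower in each. Mfap5 stood at 681, 996 and 1593 CPM in fibroblasts, against 0.378, 1.32 and 4.56 CPM in epithelial cells and 1.30, 1.98 and 6.83 CPM in basal cells. Fbn1, the fibrillin that forms microfibrils, stood at 194, 704 and 1109 CPM in fibroblasts, against 19.7, 58.0 and 36.3 CPM in epithelial cells and 87.7, 126 and 118 CPM in basal cells (3.92 ± 0.54 and 2.38 ± 0.51). Eln, which encodes elastin, stood at 194, 1331 and 631 CPM in fibroblasts, against 58.2, 169 and 91.2 CPM in epithelial cells (2.50 ± 0.52) and 256, 360 and 289 CPM in basal cells, where it was not called (0.96). Fibroblast and basal values of Eln overlap through library 1. The latent TGF-beta binding protein Ltbp2 was lower, at 0, 44.0 and 16.9 CPM in fibroblasts, against 541, 200 and 297 CPM in basal cells (-3.26 ± 0.58). Without library 3 the calls of Fbn1 (3.03 and 1.56), Eln (2.03) and Ltbp2 against basal cells (-3.03) were lost, and without library 2 those of Eln (2.03) and of Fbn1 against basal cells (2.00); the list then held 5 of 14 higher genes without library 3 and 7 of 15 without library 2 against epithelial cells, and 4 of 14 against basal cells in either fit.

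Among matrix glycoproteins 18 of 21 genes were higher than in all epithelial cells and 0 lower (median 5.37). Against basal cells 9 of 17 were higher and 0 lower (median 3.05), and 17 of 21 were higher and 1 lower without library 1. Of the higher genes, 9 of the 18 and 7 of the 9 needed a fibroblast sum to pass the filter on low counts. Fn1, fibronectin, stood at 194, 1546 and 2708 CPM in fibroblasts, against 1.76, 2.73 and 7.10 CPM in epithelial cells and 4.24, 3.19 and 6.83 CPM in basal cells (8.26 ± 0.81 and 7.98 ± 0.79). Sparc, a collagen-binding counteradhesive protein, stood at 2236, 8229 and 4403 CPM in fibroblasts, against 325, 1015 and 791 CPM in epithelial cells (2.34 ± 0.69) and 1513, 2244 and 2660 CPM in basal cells, where it was not called (0.70). Periostin, Postn, stood at 194, 4780 and 1920 CPM in fibroblasts, against 281, 336 and 281 CPM in epithelial cells (2.27 ± 0.73, edgeR adjusted p = 0.0194) and 1309, 728 and 933 CPM in basal cells (0.68, not called). Fn1 lay above basal cells in all libraries, in library 1 on very few UMIs. Against basal cells only 1 basal sum of Fn1 reached the filter level, so it needed fibroblast sums to be tested and its separation is a description. Sparc and Postn reached that level in all 3 basal sums, and their values overlap with those of basal cells. Without library 2 or 3 the call of Sparc (2.02 and 2.22) and of Postn (1.06 and 1.53) was lost. Without library 3, 11 of 20 genes of the list were higher than in epithelial cells.

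Basement membrane genes were called in both directions. Of 21 tested, 10 were higher and 8 lower than in all epithelial cells; of 19 tested against basal cells, 4 were higher and 9 lower. Those higher than in epithelial cells included Lama2, Lama4, Lamb1, Lamc1 and Nid1, which belong to basement membranes in general or to mesenchymal ones. Against basal cells Lama2, Lama4, Lamb2 and Nid1 were higher, and Lamb1 and Lamc1 were not called. The lower ones in both comparisons included Lama3, Lamb3 and Col17a1, laminin chains and a collagen of epithelial hemidesmosomes. Nid1, which links laminin to type IV collagen, stood at 486, 1056 and 867 CPM in fibroblasts, against 1.95, 21.0 and 14.0 CPM in epithelial cells and 8.47, 46.0 and 42.6 CPM in basal cells (5.94 ± 0.57 and 4.47 ± 0.53). Lamb3 stood at 0, 55.0 and 39.4 CPM in fibroblasts, against 230, 318 and 381 CPM in basal cells (-2.98 ± 0.54). Col17a1 stood at 97.2, 5.50 and 16.9 CPM in fibroblasts, against 282, 235 and 331 CPM in basal cells (-4.39 ± 0.66). Fibroblasts lay above basal cells for Nid1 and below them for Lamb3 and Col17a1 in all libraries. Col4a1, a type IV chain, was higher than in epithelial cells (1.59 ± 0.51) at 681, 1315 and 625 CPM in fibroblasts, against 114, 411 and 191 CPM in epithelial cells, and not called against basal cells (0.03). Without library 2, 3 of 20 genes were higher and 0 lower against epithelial cells, and without library 3, 4 of 21 and 0. Against basal cells 3 were higher and 0 lower of 19 without library 2, 2 and 3 of 19 without library 3, and 7 and 10 of 22 without library 1. With cells of 3 or more endothelial, pericyte or immune markers left out, the call of Col4a1 was lost (1.48, edgeR adjusted p = 0.0683) and 8 genes of the list were higher than in epithelial cells. The calls of Lamb3 against basal cells (-3.57 and -2.94) and Col4a1 (1.55 and 1.45) were lost without library 2 or 3, and that of Col17a1 without library 2 (-3.81).

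Proteases and their inhibitors were higher in 20 of 22 genes tested against epithelial cells (median 3.50) and in 15 of 20 against basal cells (median 2.29), with 1 and 0 lower. Mmp2, gelatinase A, stood at 194, 2140 and 1334 CPM in fibroblasts, against 37.4, 193 and 151 CPM in epithelial cells (2.94 ± 0.61) and 170, 421 and 493 CPM in basal cells (1.37, not called). Its inhibitor Timp2 stood at 583, 1029 and 1813 CPM in fibroblasts, against 151, 154 and 157 CPM in epithelial cells and 170, 215 and 214 CPM in basal cells (2.54 ± 0.57 and 2.17 ± 0.55). Mmp2 in library 1 overlapped with the basal values, and Timp2 was higher in fibroblasts of each library. Serpinf1, a secreted antiangiogenic serpin, stood at 0, 1672 and 1464 CPM in fibroblasts, against 7.88, 29.9 and 15.0 CPM in epithelial cells (5.60 ± 0.69). Mmp3, Fap and Ctsk, matrix-degrading proteases, were not tested, at 0, 836 and 259 CPM, 0, 88.0 and 67.6 CPM and 0, 490 and 304 CPM in fibroblasts, against at most 0.682, 0.422 and 0.882 CPM in epithelial cells. With library 2 or 3 left out, the calls of Mmp2 (2.46 and 2.57) and Timp2 (2.30 and 1.79; 1.96 and 1.5 against basal cells) were lost, and without library 3 that of Serpinf1 (4.47); 11 and 9 of 22 genes were then higher against epithelial cells, and 4 in each against basal cells.

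**Figure D3:**
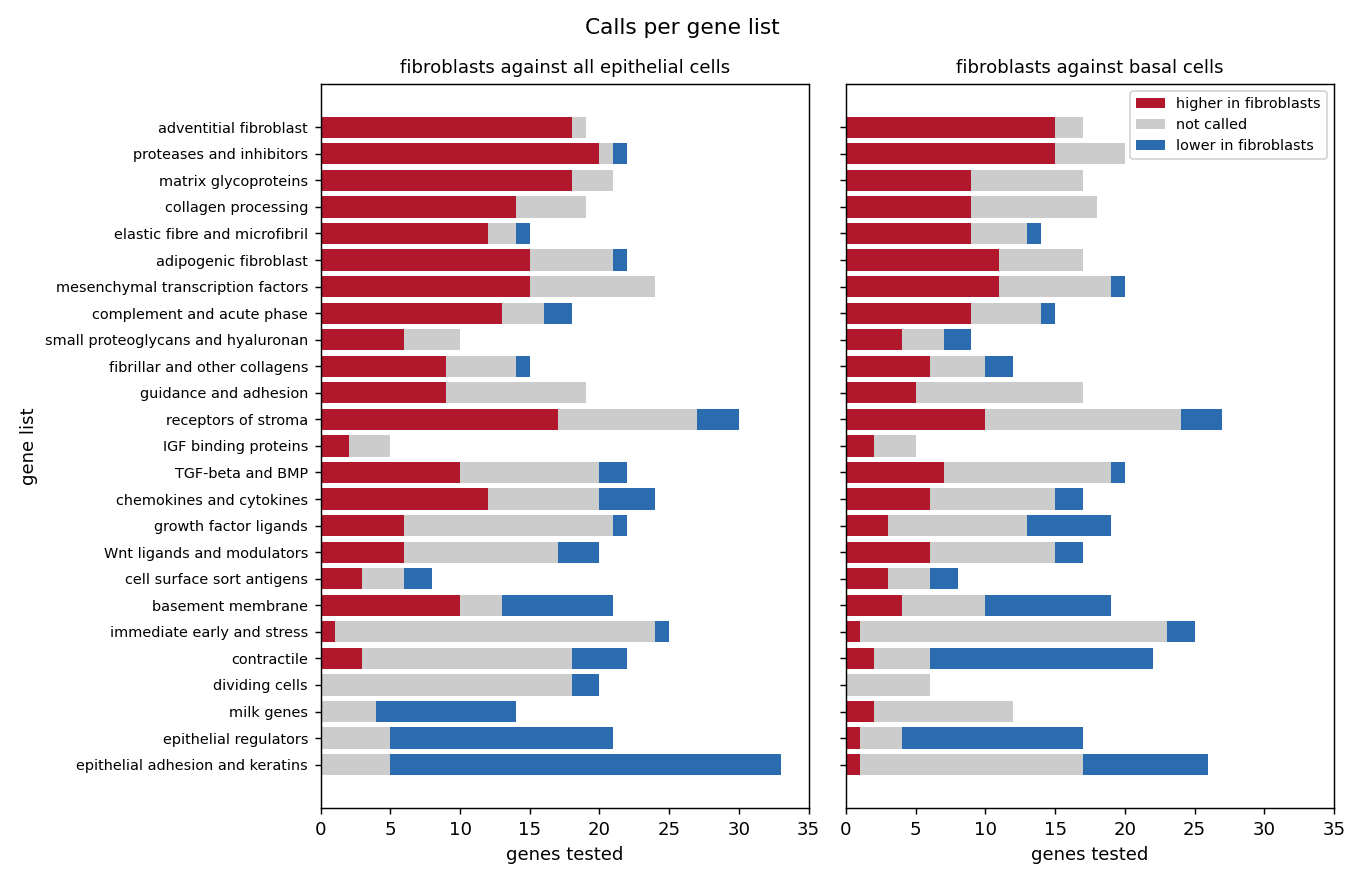
Number of genes called higher, not called and called lower in fibroblasts for each of 25 gene lists, against all epithelial cells (left) and basal cells (right). The adventitial list has 18 of 19 and 15 of 17 genes higher, of which 7 and 12 needed a fibroblast sum to pass the filter on low counts. The list of epithelial adhesion genes and keratins has 28 of 33 and 9 of 26 lower.

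Growth-factor ligands were called in both directions. Of 22 tested against epithelial cells 6 were higher and 1 lower, and of 19 against basal cells 3 were higher and 6 lower. Over all genes tested, 11.2% and 11.4% were called in either direction. Of the higher ligands, 3 of the 6 and 2 of the 3 needed a fibroblast sum to pass the filter on low counts. Igf1, the liver- and stroma-derived growth factor, stood at 97.2, 330 and 163 CPM in fibroblasts, against 4.60, 1.09 and 1.27 CPM in epithelial cells and 0.326, 0.441 and 0.742 CPM in basal cells (6.98 ± 0.42). Figf, the lymphangiogenic factor VEGF-D, stood at 194, 105 and 73.2 CPM in fibroblasts, against 1.39, 0.818 and 1.88 CPM in epithelial cells (6.05 ± 0.56; 6.34 ± 0.56 against basal cells). Igf1 and Figf were higher in fibroblasts in every library, but in library 1, at 97.2 CPM per UMI, on very few UMIs. The heparin-binding factor Ptn was lower, at 194, 127 and 73.2 CPM in fibroblasts, against 920, 1391 and 1207 CPM in epithelial cells (-3.71 ± 0.64). Pdgfa, a ligand of Pdgfra, was lower than in basal cells (-2.15 ± 0.52) at 97.2, 27.5 and 33.8 CPM in fibroblasts, against 130, 165 and 123 CPM in basal cells. The branching factor Fgf10 was not tested, at 7 UMIs in 5 fibroblasts. Without library 2 or 3 the call of Pdgfa was lost (-1.79 and -2.34), and without library 3 that of Ptn (-3.53). The list then had 3 of 23 genes higher than in epithelial cells without library 3, and 2 higher and 0 lower of 19 than in basal cells without library 2 or 3. Of 5 IGF-binding proteins, Igfbp6 and Igfbp4 were higher in both comparisons, Igfbp4 at 389, 1997 and 1436 CPM in fibroblasts, against 8.51, 67.3 and 32.6 CPM in epithelial cells (4.98 ± 0.64). Its call against basal cells (3.55) was lost without library 2 (3.27) or 3 (3.19).

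Receptors of stromal cells were higher in 17 of 30 genes tested against epithelial cells and lower in 3; against basal cells 10 of 27 were higher and 3 lower. Pdgfrb, the receptor of PDGF-B carried by pericytes and fibroblasts, stood at 194, 407 and 197 CPM in fibroblasts, against 1.39, 3.59 and 4.07 CPM in epithelial cells and 4.89, 6.94 and 13.4 CPM in basal cells (6.21 ± 0.44 and 4.85 ± 0.41). Pdgfrb UMIs were found in 65 fibroblasts, 37 of them also with Pdgfra. Axl, the receptor of Gas6, was higher than in epithelial cells (2.74 ± 0.43) and than in basal cells (1.24 ± 0.44), at 292, 319 and 529 CPM in fibroblasts, against 35, 67.5 and 44.8 CPM in epithelial cells. The keratinocyte growth factor receptor gene Fgfr2 was lower, at 97.2, 33.0 and 33.8 CPM in fibroblasts, against 72.8, 151 and 152 CPM in epithelial cells (-2.07 ± 0.53), with library 1 going the other way on 1 UMI. With library 2 or 3 left out, the calls of Axl (2.93 and 2.03 against epithelial cells, 1.07 and 0.57 against basal cells) and Fgfr2 (-1.87 and -1.92) were lost; that of Axl against basal cells was also lost with cells of 3 or more endothelial, pericyte or immune markers left out (1.28, edgeR adjusted p = 0.0735). Without library 2 or 3, 8 and 6 of 30 receptors were higher against epithelial cells, 6 of 28 and 5 of 27 against basal cells.

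Wnt antagonists of the Sfrp family were among the 6 of 20 genes of the Wnt list called higher than in epithelial cells, and 3 were lower. Against basal cells 6 of 17 were higher and 2 lower. The 6 in each comparison include the transcription factor Tcf4, which is not a Wnt ligand or modulator and is also counted among the mesenchymal factors. Sfrp1, a Wnt-binding antagonist, stood at 194, 374 and 225 CPM in fibroblasts, against 29.9, 21.5 and 24.2 CPM in epithelial cells and 69.7, 37.6 and 62.2 CPM in basal cells (3.39 ± 0.40 and 2.29 ± 0.40). Sfrp2, of the same family, stood at 0, 341 and 265 CPM in fibroblasts, against 36.5, 8.68 and 12.1 CPM in epithelial cells (4.22 ± 0.41), and library 1, with 0 UMIs, lay below its epithelial value. The ligand Wnt5b was lower, at 0, 0 and 11.3 CPM in fibroblasts, against 95.1, 64.3 and 70.4 CPM in epithelial cells (-3.73 ± 0.82). Wnt10a had 0 UMIs in fibroblasts, against 33.6, 25 and 22.3 CPM in basal cells, and was called lower; all 3 fibroblast sums at 0 give no fold, and the call was lost without library 2 or 3. The call of Wnt5b was lost without library 2 (-2.92) and without library 3, where the fibroblast sums were at 0. Calls were also lost for Sfrp1 against basal cells without library 2 (1.33) or 3 (2.22). Those of Sfrp1 (3.15) and Sfrp2 (3.45) against epithelial cells were lost without library 3. Without library 2 or 3, 3 of 20 and 1 of 19 genes of the Wnt list were higher than in epithelial cells. Against basal cells it was 2 of 17 in either fit. Of 22 TGF-beta and BMP pathway genes 10 were higher and 2 lower than in epithelial cells, and of 20 against basal cells 7 were higher and 1 lower (11 of 24 and 1 without library 1). Htra1, a secreted protease that cleaves TGF-beta family proteins, stood at 194, 1238 and 518 CPM in fibroblasts, against 6.99, 44.8 and 20.5 CPM in epithelial cells (4.57 ± 0.54). Tgfbr2, the type II TGF-beta receptor, stood at 0, 451 and 462 CPM in fibroblasts, against 33.2, 51.7 and 59.8 CPM in epithelial cells (2.72 ± 0.43), and its call was lost without library 2 (2.05) or 3 (2.07). Without library 2, 5 of 22 genes of this pathway were higher against epithelial cells, and without library 3, 4; against basal cells 4 of 21 and 2 of 19. In the fit that leaves out cells of 3 or more endothelial, pericyte or immune markers, 7 of 21 were higher than in epithelial cells and 5 of 19 than in basal cells.

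Complement and acute-phase genes were higher in 13 of 18 tested against epithelial cells (median 2.03) and 9 of 15 against basal cells (median 3.25), with 2 and 1 lower. Serping1, the inhibitor of the first complement component, stood at 2528, 1359 and 2252 CPM in fibroblasts, against 10.3, 13.5 and 18.2 CPM in epithelial cells and 16, 26.9 and 41.9 CPM in basal cells (6.73 ± 0.66 and 5.81 ± 0.61). C3, the central complement protein, stood at 1556, 957 and 2168 CPM in fibroblasts, against 353, 190 and 312 CPM in epithelial cells and 122, 119 and 103 CPM in basal cells (2.05 ± 0.57 and 3.33 ± 0.56). Fibroblasts were higher in every library for both genes. Haptoglobin, Hp, was lower than in epithelial cells (-4.13 ± 0.69), and the siderophore-binding Lcn2 lower than in both (-2.43 ± 0.62 and -1.97 ± 0.55), with Lcn2 at 1458, 176 and 253 CPM in fibroblasts, against 3312, 935 and 1281 CPM in epithelial cells. Without library 2 or 3 the calls of C3 (1.89 and 1.57; 3.46 and 2.72 against basal cells) and Lcn2 (-2.39 and -2.50; -1.76 and -1.91) were lost, and 7 and 6 of 18 genes of the list were higher against epithelial cells. With cells of 3 or more endothelial, pericyte or immune markers left out, the call of C3 against epithelial cells was lost as well (1.53, edgeR adjusted p = 0.137). Of 24 chemokines and cytokines 12 were higher and 4 lower than in epithelial cells; 6 of 17 were higher and 2 lower than in basal cells (14 of 24 and 2 without library 1). Cxcl12, which retains leukocytes and stem cells through Cxcr4, stood at 194, 484 and 557 CPM in fibroblasts, against 29.2, 57.0 and 40.6 CPM in epithelial cells and 130, 110 and 128 CPM in basal cells (3.18 ± 0.44 and 1.71 ± 0.45). Ccl7, which attracts monocytes, was higher in both (3.80 ± 0.41 and 2.31 ± 0.39). Cxcl14 was lower than in basal cells (-3.01 ± 0.61), at 194, 281 and 293 CPM in fibroblasts, against 2006, 1543 and 2166 CPM in basal cells. Calls of Cxcl12 (3.03 and 2.50; 1.12 and 1.14) and Cxcl14 (-3.51 and -3.26) were lost without library 2 or 3, as was that of Ccl7 against basal cells (2.80 and 1.54); 7 of 23 and 5 of 23 genes were then higher than in epithelial cells, and 2 of 16 and 1 of 17 than in basal cells.

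Transcription factors of mesenchyme were higher in 15 of 24 tested against epithelial cells and lower in 0 (median 2.82). Against basal cells 11 of 20 were higher and 1 lower (median 1.68). Of the higher factors, 8 of the 15 and 5 of the 11 needed a fibroblast sum to pass the filter on low counts. Ebf1, a helix-loop-helix factor of adipogenic and stromal cells, stood at 389, 836 and 698 CPM in fibroblasts, against 0.252, 1.18 and 3.61 CPM in epithelial cells and 0.652, 1.54 and 5.79 CPM in basal cells (8.55 ± 0.61 and 7.90 ± 0.60). The nuclear receptor gene Nr2f2 stood at 972, 182 and 146 CPM in fibroblasts, against 8.38, 9.68 and 7.13 CPM in epithelial cells (4.54 ± 0.37 and, against basal cells, 4.27 ± 0.36). Both were higher in fibroblasts in every library, Nr2f2 most in library 1. Maf, a basic leucine zipper factor, stood at 0, 396 and 203 CPM in fibroblasts, against 10.1, 12.1 and 8.36 CPM in epithelial cells (4.52 ± 0.41). Twist1, a regulator of mesenchymal identity, was not tested, at 0, 160 and 78.8 CPM in fibroblasts, against at most 0.575 CPM in epithelial cells. The tendon factor Scx was called lower than in basal cells with 0 UMIs in all fibroblast sums, against 19.6, 23.6 and 30.1 CPM in basal cells, and without library 2 or 3 it was not called. Without library 1, 21 of 29 factors were higher in each comparison, and without library 2 or 3, 10 of 23 and 8 of 21 against epithelial cells and 5 of 19 in each against basal cells.

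Contractile genes separated fibroblasts from basal cells. Of 22 genes tested, 16 were lower and 2 higher than in basal cells (median -2.41), whereas 4 were lower and 3 higher than in all epithelial cells (10 and 4 without library 1). Acta2, smooth-muscle actin, stood at 3792, 451 and 541 CPM in fibroblasts, against 4933, 6840 and 7180 CPM in basal cells (-3.14 ± 0.70) and 1067, 3084 and 2125 CPM in all epithelial cells (-1.5, not called). Fibroblasts of library 1 carried far more Acta2 than those of libraries 2 and 3, beside myoepithelial markers in 2 of its 5 cells; the part of those cells in the level was not tested. Cnn1, a calponin that regulates actin and myosin, stood at 97.2, 99.0 and 50.7 CPM in fibroblasts, against 890, 863 and 891 CPM in basal cells (-3.68 ± 0.61). Des, the intermediate filament desmin of muscle and pericytes, was higher than in basal cells (4.90 ± 0.67), at 486, 33.0 and 28.2 CPM in fibroblasts, against 1.96, 0.551 and 2.82 CPM in basal cells. Des was seen in 11 fibroblasts, and the pericyte marker Rgs5 in 10; with cells of 3 or more endothelial, pericyte or immune markers left out, Des could not be tested and 10 of 21 contractile genes were lower than in all epithelial cells. The migration-associated S100a4 was higher in both comparisons (4.18 and 3.04). Of the contractile genes called higher, 2 of the 3 against epithelial cells and 2 of the 2 against basal cells needed a fibroblast sum to pass the filter. S100a4 and Des are among them in both comparisons, so these folds are a description. With library 2 or 3 left out, the call of Acta2 was lost (-2.69 and -2.81), without library 3 that of Cnn1 (-3.51) and without library 2 that of S100a4 against basal cells (2.71); 2 and 0 contractile genes were then lower than in basal cells, and 0 than in epithelial cells.

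Epithelial junction, keratin and regulator genes were lower in fibroblasts. Of 33 genes of adhesion and keratins, 28 were lower and 0 higher than in all epithelial cells (median -2.91); 9 of 26 were lower and 1 higher than in basal cells. Epcam, the antigen of the sort and an adhesion molecule of epithelium, stood at 97.2, 88.0 and 50.7 CPM in fibroblasts, against 1352, 848 and 1108 CPM in all epithelial cells and 793, 283 and 323 CPM in basal cells (-4.00 ± 0.65 and -2.43 ± 0.53, with edgeR adjusted p of 2.90e-08 and 0.000105). UMIs of Epcam were found in 15 fibroblasts, and after thinning in 5.92% of fibroblasts and 56.1% of epithelial cells. Krt18, a keratin of simple epithelium, stood at 97.2, 176 and 259 CPM in fibroblasts, against 1237, 1311 and 2162 CPM in epithelial cells (-3.24 ± 0.64) and 157, 175 and 291 CPM in basal cells (-0.25, not called). Fibroblast levels of Krt18 overlap with those of basal cells and lie below all epithelial cells. Of 21 epithelial regulators 16 were lower than in epithelial cells, and of 17 against basal cells 13 were lower and 1 higher. Sox9 stood at 97.2, 44.0 and 95.7 CPM in fibroblasts, against 430, 297 and 345 CPM in epithelial cells (-2.38 ± 0.52), and the basal master regulator Trp63 at 0, 27.5 and 28.2 CPM in fibroblasts, against 158, 197 and 170 CPM in basal cells (-2.81 ± 0.55). Hes1, a Notch target, was higher than in basal cells (2.30 ± 0.50). Calls lost without library 2 or 3 included Krt18 (-3.59 and -3.56), Sox9 (-2.27 and -2.99), Trp63 (-2.91 and -3.14), Hes1 (2.07 and 2.12) and Epcam against basal cells (-3.17 and -2.51); 4 and 2 adhesion genes and 1 and 0 regulators were then lower than in epithelial cells, and against basal cells 2 and 2 adhesion genes and 0 and 1 regulators.

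Milk genes were lower than in all epithelial cells for 10 of 14 tested and not called against basal cells for 10 of 12. Csn2, beta-casein, stood at 0, 275 and 163 CPM in fibroblasts, against 110, 3593 and 2893 CPM in epithelial cells (-3.94 ± 0.77) and 4.24, 264 and 131 CPM in basal cells (0.19, not called). The fibroblast values of libraries 2 and 3 lay next to those of basal cells of the same library. The enzyme Xdh, which helps to form milk fat droplets, was higher than in basal cells (2.89 ± 0.40), at 97.2, 82.5 and 163 CPM in fibroblasts, against 16.3, 12.9 and 17.2 CPM in basal cells, and was not called against epithelial cells (0.77). Plin2, which coats lipid droplets, was lower than in epithelial cells (-1.33 ± 0.47) and higher than in basal cells (1.16 ± 0.38); both calls were lost without library 2 (-2.09 and 0.69) or 3 (-1.69 and 1.01), and the lower call also with cells of 3 or more endothelial, pericyte or immune markers left out (-1.24, edgeR adjusted p = 0.111). Without library 2 or 3 the call of Csn2 was lost (-4.21 and -3.84), as was that of Xdh without library 3 (2.51), and 4 and 3 milk genes were lower than in epithelial cells.

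Of 8 surface antigens tested, 3 were higher and 2 lower in fibroblasts in each comparison. Itga6, which encodes CD49f, stood at 1264, 171 and 118 CPM in fibroblasts, against 275, 492 and 320 CPM in all epithelial cells (-0.85, not called) and 764, 910 and 776 CPM in basal cells (-1.97 ± 0.55). Library 1 lay above the epithelial and basal values and libraries 2 and 3 below them, and the call against basal cells was lost without library 2 (-1.65) or 3 (-1.53). Itga6 UMIs were found in 27 fibroblasts, among them all 5 of library 1. Without library 2, 1 and 2 antigens were higher than in epithelial and basal cells, and without library 3, 1 and 1. Pecam1, which encodes CD31, had 13 UMIs in 3 fibroblasts and was called higher (2.69 ± 0.67 against epithelial cells); the sign turned when cells with 3 or more endothelial, pericyte or immune markers were left out (-0.82). Its call was lost without library 2 (2.49) or 3 (2.72). Ptprc, which encodes CD45, had 1 UMI. Ly6a, the Sca-1 antigen of many mesenchymal cells, stood at 0, 374 and 935 CPM in fibroblasts, against 78.4, 55.4 and 123 CPM in epithelial cells and 10.8, 3.96 and 11.4 CPM in basal cells (2.31 ± 0.48 and 5.81 ± 0.53), and its call against epithelial cells was lost without library 2 (1.57) or 3 (1.41). Thy1, a surface antigen of fibroblasts, was not tested, at 0, 231 and 203 CPM in fibroblasts, against at most 1.09 CPM in epithelial cells.

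Adventitial genes were higher in nearly all members tested. Of 19 tested, 18 were higher than in all epithelial cells and 0 lower (median 5.95). Against basal cells 15 of 17 were higher and 0 lower (median 5.84). Of these higher genes, 7 of the 18 and 12 of the 15 needed a fibroblast sum to pass the filter on low counts. Without library 3 the counts of higher genes were 11 of 18 and 10 of 15. Pi16, a protease inhibitor that marks adventitial fibroblasts, stood at 0, 957 and 2748 CPM in fibroblasts, against 0.126, 1.86 and 7.63 CPM in epithelial cells and 0.652, 1.76 and 6.68 CPM in basal cells (8.62 ± 0.83 and 8.60 ± 0.82). Clec3b stood at 292, 1216 and 2832 CPM in fibroblasts, against 0.315, 1.41 and 7.25 CPM in epithelial cells. Library 3 was highest for both genes in fibroblasts and also in epithelial cells, and Pi16 was at 0 UMIs in the fibroblasts of library 1 and could not be tested against basal cells without library 3. The adipogenic list had 15 of 22 genes higher and 1 lower than in epithelial cells (median 4.17). Against basal cells it had 11 of 17 higher and 0 lower (median 2.47), and 18 of 24 and 2 without library 1. In this list 10 of the 15 and 8 of the 11 higher genes needed a fibroblast sum to pass the filter. Apod, a lipid-binding lipocalin, stood at 778, 1260 and 1351 CPM in fibroblasts, against 33.6, 14.5 and 35.1 CPM in epithelial cells and 1.30, 22.0 and 27.2 CPM in basal cells (5.17 ± 0.60 and 6.10 ± 0.60). Lpl, lipoprotein lipase, stood at 97.2, 1667 and 1154 CPM in fibroblasts, against 5.67, 25.5 and 16.8 CPM in epithelial cells (5.65 ± 0.65). Fibroblasts were higher in all libraries for both, for Lpl in library 1 on 1 UMI. Penk, the opioid precursor proenkephalin, stood at 0, 187 and 225 CPM in fibroblasts, against 0.126, 1.5 and 0.844 CPM in epithelial cells (7.46 ± 0.44), and could not be tested without library 2. With library 2 or 3 left out, 10 of 21 and 9 of 21 adipogenic genes were higher than in epithelial cells, and 6 of 17 and 6 of 16 than in basal cells.

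Levels of these lists in fibroblasts are given by library. Col1a1, Col1a2 and Col3a1 together took a median of 3.74% of a cell's UMIs in library 2 and 1.42% in library 3, and 0.143% in library 1. The adventitial list summed to 8166, 9065 and 18850 CPM in fibroblasts of libraries 1, 2 and 3, and the adipogenic list to 4472, 7646 and 6745 CPM. Postn UMIs were found in 82.5% of the 80 fibroblasts of library 2 and in 51.1% of the 92 of library 3, Col15a1 in 58.8% and 31.5%, Dpt in 45% and 67.4%, and Pi16 in 21.3% and 39.1%. Thinned to 1000 UMIs, Col15a1 was found in 44.9% and 25.6%, Dpt in 34.6% and 60.5% and Pi16 in 19.2% and 34.9% of 78 and 86 fibroblasts; among thinned epithelial cells Pi16 was found in 0.0933% and 0.338%. Collagen and Postn shares were higher in library 2 and adventitial shares higher in library 3, at median depths of 2131.5 and 1607.5 UMIs. The labels give no difference between the libraries, and these shares carry no test.

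**Figure D4:**
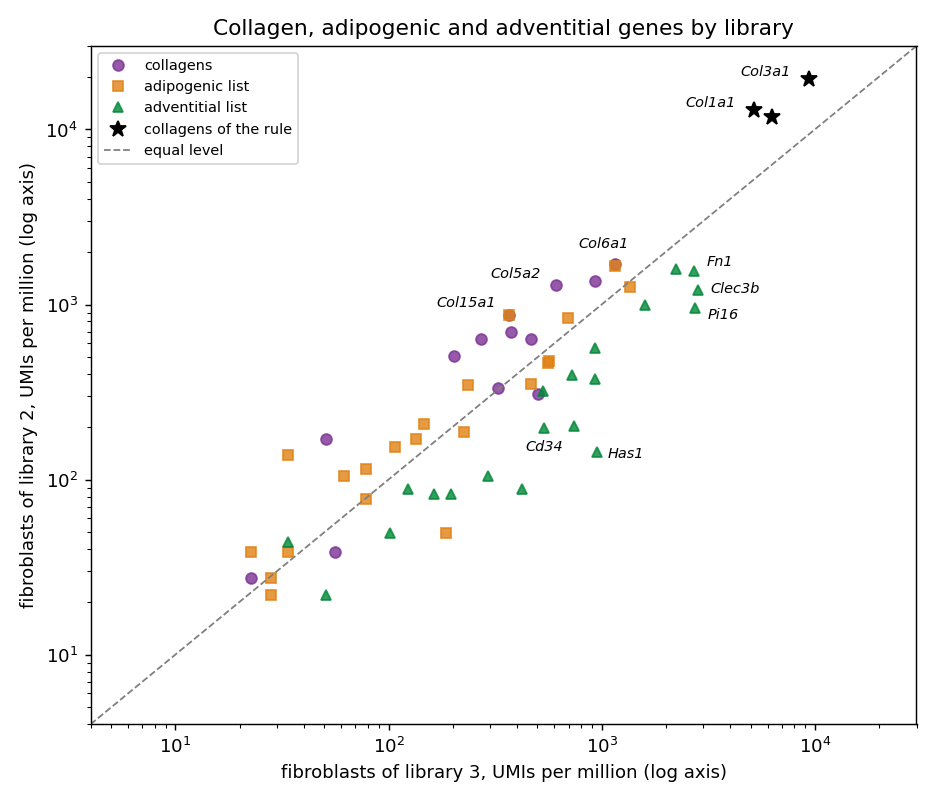
Levels of collagen, adipogenic and adventitial genes in fibroblasts of library 2 (vertical, CPM, log axis) against those of library 3 (horizontal, CPM, log axis), for genes with at least 3 UMIs in each. Most adventitial genes, among them Pi16 (957 and 2748 CPM), lie under the line of equal level, and the collagens of the rule lie above it.

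Within the fibroblasts, 53 of 177 carried a Pi16 UMI (0, 17 and 36 by library). Of the 21 cells with a Dpp4 UMI, a surface peptidase of the same adventitial state, 18 also carried Pi16. Col15a1 was found in 76 cells, 13 of them with Pi16, and Penk in 43, 11 of them with Pi16. The other adventitial genes summed to 18745 CPM in the 17 cells of library 2 with Pi16, against 4987 CPM in the 63 without it, and to 27096 CPM in the 36 of library 3 with Pi16, against 7270 CPM in the 56 without it. The adipogenic list stood at 4341 CPM with Pi16 and 8616 CPM without it in library 2, and at 3450 and 9392 CPM in library 3. The pericyte markers other than Rgs5 moved with it, at 48.5 CPM with Pi16 and 356 CPM without it in library 2 and at 101 and 477 CPM in library 3; their part in the result was not tested. The collagens of the rule stood at 41200 and 44893 CPM in library 2 and at 16278 and 24390 CPM in library 3. Median depths were 2104 and 2157 UMIs in library 2 and 2038 and 1527 UMIs in library 3, so in library 3 the cells with Pi16 were the deeper ones, and the part of depth was not tested. These groups were cut from the cells' own counts and were not tested.

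**Figure D5:**
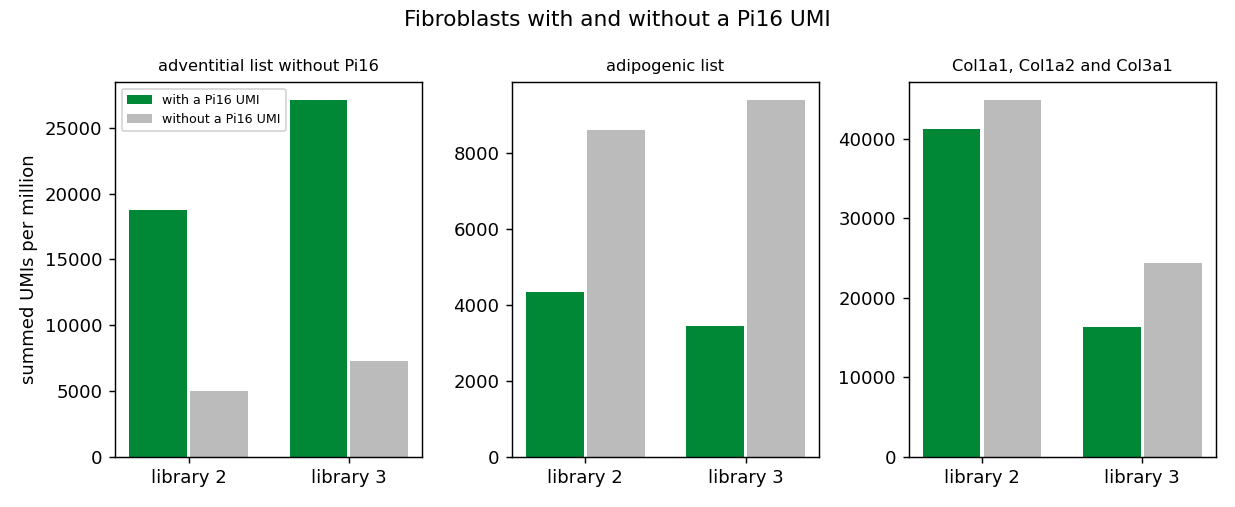
Summed level (CPM, bars, no replicates) of the adventitial list without Pi16, the adipogenic list and the 3 collagens of the rule in fibroblasts with and without a Pi16 UMI, in libraries 2 and 3. The adventitial sum is 18745 against 4987 CPM in library 2 and 27096 against 7270 CPM in library 3.

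Another 10 of the 177 cells carried Rgs5, a regulator of G-protein signalling that marks pericytes, at 116 UMIs in all. Of these 10 cells 0 carried Pi16, Lum or Dpt, and 1 carried Pdgfra. The collagens of the rule summed to 2280 CPM in the 10 cells with Rgs5 and 33861 CPM in the 167 without it, the other pericyte markers to 2752 and 148 CPM, the adipogenic list to 12660 and 6716 CPM, and the adventitial list without Pi16 to 1455 and 12726 CPM. Rgs5 was called higher against all epithelial cells (6.95) and against basal cells (6.02), and among cells with at least 4 fibroblast markers it stood at 0.13 and -0.76 and was not called. These 10 cells met the rule, go against the label of fibroblast by these markers, and are counted among the 177.

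Immediate-early genes, which tissue dissociation can induce, were called about as often as all genes tested (11.2% against epithelial cells and 11.4% against basal cells). Of 25 tested, 1 was higher and 1 lower than in epithelial cells, and 1 was higher and 2 lower than in basal cells; without library 2 or 3 it was 0 in either direction, and without library 1, 4 were higher than in epithelial cells and 3 than in basal cells. Fos stood at 6222, 6491 and 8445 CPM in fibroblasts, against 1910, 3971 and 4967 CPM in epithelial cells and 2525, 3528 and 4506 CPM in basal cells (0.60 and 0.63, not called). Fibroblast values of Fos lay above those of both classes in every library. The 25 genes summed to 44624, 36222 and 48573 CPM in fibroblasts, against 19145, 25899 and 31690 CPM in epithelial cells and 36319, 27523 and 32749 CPM in basal cells. These sums were higher in fibroblasts in every library and were not tested. The genes of this list took a median of 4.14% of a fibroblast's UMIs. Dusp1, a phosphatase induced with them, was the gene called higher than in epithelial cells (1.73 ± 0.56), and its call was lost without library 2 (1.41) or 3 (1.55) and with cells of 3 or more endothelial, pericyte or immune markers left out (1.67, edgeR adjusted p = 0.0683). Genes of dividing cells were near the limit of detection: 1 of 177 fibroblasts carried an Mki67 or Top2a UMI. Summed over the 20 genes of this list, fibroblasts stood at 194, 71.5 and 95.7 CPM, against 231, 329 and 271 CPM in epithelial cells and 172, 231 and 182 CPM in basal cells. Of 20 tested against epithelial cells, 2 (Top2a and Mcm6) were lower and 0 higher, near the share over all genes. Without library 2 or 3 it was 0 in either direction. Of 6 tested against basal cells 0 were called. Of 19 guidance and adhesion genes 9 were higher and 0 lower than in epithelial cells, and 5 of 17 were higher and 0 lower than in basal cells (9 of 21 and 1 without library 1); without library 2 or 3, 4 of 19 were higher than in epithelial cells, and 2 of 17 and 1 of 16 than in basal cells. Nrp1, a co-receptor of semaphorins and VEGF, stood at 486, 127 and 163 CPM in fibroblasts, against 1.45, 0.818 and 1.11 CPM in epithelial cells and 1.63, 0.881 and 1.63 CPM in basal cells (7.18 ± 0.48 and 6.87 ± 0.50).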

How the data were processed

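Droplet single-cell RNA-seq (10x, 3' ends, sequenced on a HiSeq4000) gave 3 libraries of sorted mouse mammary cells. The deposited counts are whole UMI counts per gene and barcode, made by the authors with Cell Ranger 2.1.0 on mm10, per the submitters' processing notes; 19050 genes and 26845 barcodes are in the files. Fewer cells of a type and less RNA per cell cannot be told apart in summed counts.

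Cells with at least 500 genes and under 10% mitochondrial UMIs were kept, classes were assigned by the rule, and the UMI counts of each class were added up within a library. Members, gene lists and markers were chosen with earlier results of these data known. Sums were tested with edgeR 4.0.16 in R 4.3.3 (quasi-likelihood, TMM, filterByExpr, library as a block), without the 18 rule genes. Calls needed a Benjamini-Hochberg adjusted p under 0.05 and a log2 fold change of 1 or more. Every fold change is edgeR's fitted value on the log2 scale, at its default prior count. A prior count of 2 was used only for the ratios within each library that gave the sign per library. Alternatives included DESeq2 1.42.0, other cell filters, and leaving out doublet candidates scored with Scrublet in scanpy 1.11.5; doublets stayed in otherwise. The genes named are the 10 largest higher and 5 largest lower per comparison, leading and contrary members and uncalled members of 25 lists, the sort's antigens, and further list members beside their list's counts. Shares carry exact Clopper-Pearson 95% intervals, which cover counting error only. Promoter sequences came from RefSeq.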

Additional observations from a re-analysis of the deposited data

How the results depend on the processing

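Library 1 holds 5 fibroblasts, and depth limits what its sums can show. For all called genes, leaving out 1 library gave 297 to 1548 calls against epithelial cells (285 to 933 higher, 12 to 615 lower) and 190 to 1654 against basal cells (172 to 920 higher, 18 to 734 lower). Without the replicate block 1371 and 1165 genes were called. DESeq2 called 832 genes against epithelial cells (213 lower) and 599 against basal cells (360 higher, 239 lower). With at least 4 markers, which leaves libraries 2 and 3, 1904 genes were called against epithelial cells (945 lower) and 1784 against basal cells (911 higher, 873 lower). Thinned epithelial sums, with fewer genes tested, gave 620 calls (452 higher, 168 lower) and, against basal cells, 671 (238 lower). A minimum of 1000 genes per cell gave 712 calls against basal cells (323 lower), and no filter on low counts gave 900 higher. The fibroblast share was 1.16% with at least 2 markers, 0.551% with fewer than 2 UMIs in each epithelial set and 0.503% with at least 1000 genes. Of 212 results for single genes, 112 lost the call without some library and 0 reversed. Pecam1 reversed against epithelial cells with at least 4 markers (-0.63), with cells carrying 3 or more endothelial, pericyte or immune markers left out (-0.82) and with top Scrublet scores left out (-0.60), and against basal cells with at least 4 markers (-0.49). Rgs5 reversed against basal cells with at least 4 markers (-0.76). The cause of these changes was not tested.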
